A study of Rattus norvegicus with 30 samples.

Results

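The comparison described here is that of the colon 1 h after irinotecan with the untreated colon, the earliest time the study sampled in this tissue. Its members are 4 of the 30 arrays of the series, 2 labelled colon at 1 h and 2 labelled colon at 0 h, and all 31042 probe sets that are not array controls were tested. The study gave female DA rats, 10 weeks old, 200 mg/kg of irinotecan in an intraperitoneal injection under light halothane anaesthesia and killed them at 1, 6, 24 or 72 h, while the rats of the 0 h group received no irinotecan. Each time had 6 rats, and RNA from whole colon was pooled from 3 rats per array, so that each group here is 2 pools and the spread among rats within a pool is not seen. The labels do not say whether the 0 h rats were injected or anaesthetised, so that irinotecan, the injection and the anaesthetic cannot be told apart. Values are log2 signals on Affymetrix rat GeneChip arrays.

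Irinotecan is a camptothecin prodrug. Carboxylesterases convert it to SN-38, which traps topoisomerase I on DNA, so that replication forks and RNA polymerases run into the trapped enzyme. In the gut the drug damages crypt cells, in which the epithelium divides, and diarrhoea is its best known toxicity. Tissues also respond within the first hour to many stimuli through immediate early genes, whose transcription needs no new protein, and through glucocorticoids released in stress.

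The arrays carried the markers of their labelled tissue. Car1, the carbonic anhydrase of surface colonocytes, read 13.14 and 12.53 at 1 h and 12.31 and 12.61 at 0 h, and the colonocyte marker list had a median log2 signal of 12.09 and 12.24 at 1 h and 12.17 on both 0 h arrays. Correlations across probe sets between the 2 pools of a time were 0.990 at 1 h and 0.993 at 0 h. Some arrays also read higher for marker genes of neighbouring organs. Ins2, the insulin gene of the endocrine pancreas, read 6.30 and 9.82 at 1 h, against 6.11 and 6.17 at 0 h, and the acinar pancreas list (18 genes, 15 of them highest on the second 1 h array) had medians of 6.38 and 7.06 at 1 h and 6.77 and 6.24 at 0 h. The second 0 h array carried small intestine genes: that list (14 genes, 10 of them highest on this array) had medians of 7.18 and 7.08 at 1 h and 7.01 and 8.11 at 0 h. Whether this RNA was carried over from other organs was not tested, nor was its part in the differences. Values without the second 0 h array are given below for some of the genes and lists.

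No probe set passed an adjusted p of 0.05 in limma's fit of the 10 colon arrays (percent called 0, lowest adjusted p = 0.156), so the differences below are measured values and none is a call. In whole tissue, fewer cells of a type and less RNA per cell cannot be told apart. At an unadjusted p under 0.05 there were 4624 probe sets, 14.9% of those tested, of which 2543 were higher (8.19%) and 2081 lower (6.7%) at 1 h. The 1 h arrays both lay above both 0 h arrays in 29.8% of probe sets and below both in 24.7%. The median standard error of a log2 difference was 0.125, and 31 probe sets lay at least 2-fold apart. Of these, 14 were higher at 1 h on both arrays than on either 0 h array (0.0451% of probe sets) and 12 were lower (0.0387%). The count of calls depended on which arrays set the error: a fit of all 30 arrays of the study called 104 probe sets, 0.335% of those tested, of which 54 were higher (0.174%) and 50 lower (0.161%) at 1 h, and a fit of the colon arrays at 0, 1 and 6 h called 13, 12 of them higher. Sizes also turned on the untreated pool used. Tifa, lower at 1 h, differed by -2.07 without the first 0 h array and by -1.10 without the second. The second is the array with the small intestine markers.

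Of the 15 genes named for the smallest p among those higher at 1 h, 5 are on the list of immediate early genes. That list holds 45 of the 14217 genes measured. Gem, a small GTPase that restrains voltage-gated calcium channels, read 8.95 and 9.01 at 1 h, against 7.63 and 7.83 at 0 h. Its signal was 2.38-fold higher (log2 difference 1.25, SE 0.160, adjusted p = 0.156), and it was called in the fit of all 30 arrays (adjusted p = 0.0407). Id2, which binds other helix-loop-helix factors and keeps them off DNA, read 10.23 and 10.18 at 1 h, against 9.35 and 9.43 at 0 h, a log2 difference of 0.82 (SE 0.108, adjusted p = 0.156). Its second probe set differed by 0.50, with no overlap either. Ddit4, an inhibitor of the growth kinase complex mTORC1, read 10.22 and 10.54 at 1 h and 9.19 and 9.25 at 0 h, a log2 difference of 1.16 (SE 0.194). Adamts1, a secreted protease of the matrix, read 8.78 and 8.87 at 1 h and 7.40 and 7.67 at 0 h (difference 1.29, SE 0.235). Gdf15, a stress-induced cytokine of the TGF-beta family, read 7.53 and 8.04 at 1 h and 6.44 and 6.65 at 0 h (difference 1.24, SE 0.221). In each of these 5 genes both 1 h arrays stood above both 0 h arrays, which the rule for naming them required.

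The other genes named at this end, apart from Dusp1, which is described with its list below, lay between 0.50 and 0.90 higher on the log2 scale. They were Rhob, an immediate early GTPase (0.90), Ier3, an immediate early survival factor (0.86), Depp1, a FoxO target (0.84), H1f2, a linker histone (0.82), Sgk1, a kinase that raises epithelial sodium transport (0.76), Sik1, a salt-inducible kinase (0.75), Kcne4, a potassium channel subunit (0.71), Rasl11b, a Ras-like GTPase (0.62), and Dgki, a diacylglycerol kinase (0.50). H1f2 belongs to a family of near-identical histone genes, and its probe set may detect others. Of the 15 genes named as higher, 9 were called in the fit of all 30 arrays, where 0.174% of all probe sets were called higher. That fit uses again the colon values that chose these genes, so the count is no separate test of them. Adm, which encodes the vasodilator peptide adrenomedullin and was singled out after its values were seen, read 8.97 on both 1 h arrays, against 7.85 and 7.68 at 0 h (difference 1.21, SE 0.282, adjusted p = 0.286).

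**Figure D1:**
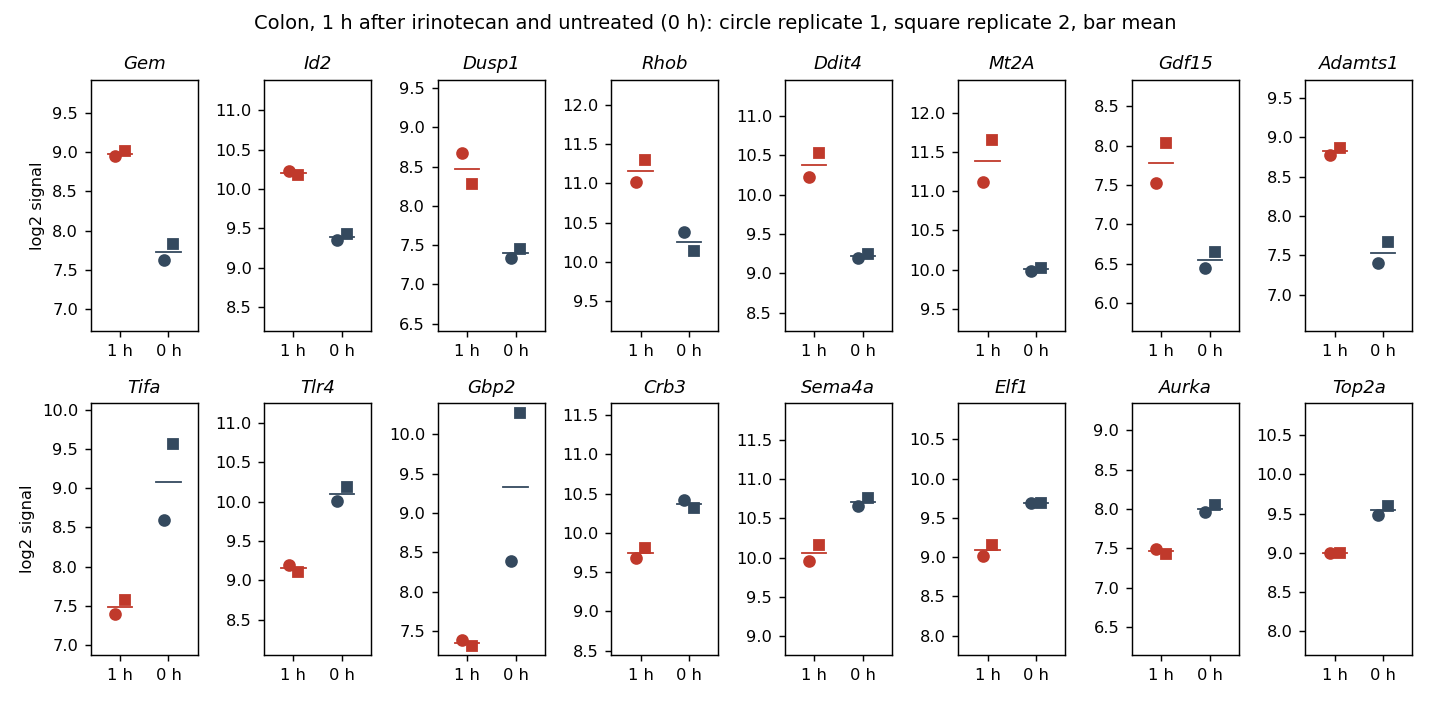
Log2 signal of 8 genes that lay higher at 1 h (upper row) and 8 that lay lower (lower row) on each colon array, with the 1 h arrays left of the 0 h arrays; circles are replicate 1, squares replicate 2, bars the mean of 2 pools, and every panel spans the same number of log2 units; Dusp1 is shown by its dimmer probe set. Both 1 h points lie on one side of both 0 h points in all 16 panels. The rule for naming genes required this of all but Mt2A, Gbp2 and Top2a. The pools of 0 h lie far apart for Gbp2 (8.39 and 10.28).

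Immediate early genes were described as a list. Of 45 measured, 26 were higher on both 1 h arrays than on either 0 h array and 5 were lower, where over the brightest probe set of all 14217 genes the shares were 24% higher and 31.7% lower. The 26 include Dusp1, Gem, Ier3, Rhob and Sik1, which were named above for small p and no overlap. For these genes the count is not separate from that choice. The median log2 difference of the list was 0.34, against -0.03 over all genes. The second 1 h array, the one with pancreas markers, was the highest of the 4 for 25 of the 45 genes. Without it the list median was 0.22. Dusp1, the phosphatase that switches off MAP kinases, was the highest member: its brighter probe set read 11.18 and 11.03 at 1 h, against 9.72 and 9.50 at 0 h, a 2.82-fold difference (log2 1.50, SE 0.258, adjusted p = 0.226). Its other probe set differed by 1.08. Egr1, a zinc finger factor, read 9.69 and 10.08 at 1 h and 8.95 and 9.44 at 0 h (0.69, SE 0.262), Nr4a1, an orphan nuclear receptor, differed by 0.69, and Junb, a subunit of the factor AP-1, by 0.54. The list was not uniform. Fos, the partner of the Jun proteins in AP-1, read 10.62 and 11.19 at 1 h and 10.34 and 10.77 at 0 h, with arrays that overlapped (0.35, SE 0.379, adjusted p = 0.652). Atf3, a stress-induced repressor, read 7.44 and 7.89 at 1 h and 7.88 and 9.02 at 0 h (-0.78, SE 0.385, and -0.21 without the second 0 h array), and Ccn2, a matrix-associated growth factor, differed by -0.68. Myc differed by -0.05 and Ptgs2, the inducible cyclooxygenase, by 0.08, both with standard errors above 0.2.

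Promoters of this list were searched for the letters TGACG, the core of the cyclic AMP response element that CREB binds, on both strands of the 250 bases before the start. They stood in 19 of the 32 promoters found (59.4%), against 19% of 27457 rat promoters. The whole element, TGACGTCA, which contains the core on both strands, stood in 15.6% of the list and 1.7% of all promoters, and the CArG box of serum response factor in 18.8% and 1.5%. These shares describe the members of the list and are no test of the 1 h differences. In the 13 promoters found for the genes named as higher, TGACG stood in 5 (38.5%), the whole element in 1 and the CArG box in 0. The promoter of Dusp1 is shown because this gene had the largest difference of the list and holds both forms of the element (RefSeq, GRCr8, chr10:17184653-17184852, plus strand, the 200 bases before the start, with TGACG on either strand in capitals):
Dusp1: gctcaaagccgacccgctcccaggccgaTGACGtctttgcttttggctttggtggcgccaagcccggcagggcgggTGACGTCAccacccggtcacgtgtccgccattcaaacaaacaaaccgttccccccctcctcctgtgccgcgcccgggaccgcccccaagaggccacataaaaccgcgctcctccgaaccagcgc

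Genes that glucocorticoids induce lay higher too. Of 26 measured, 15 were higher on both 1 h arrays and 0 were lower (median log2 difference 0.31), against 24% and 31.7% over all genes. After cyclic loess, a normalization that evens out differences between arrays that change with signal, 16 were higher and 0 lower (median 0.35), against 23.4% and 23.6%. Mt2A, a metallothionein that binds zinc and copper, read 11.11 and 11.65 at 1 h, against 9.98 and 10.02 at 0 h (2.60-fold, log2 1.38, SE 0.296, adjusted p = 0.286). Metallothionein genes are near-identical, and its probe set may detect others. Cebpd, an early acting C/EBP factor, read 9.13 and 8.75 at 1 h and 7.80 and 8.06 at 0 h (1.01, SE 0.255). Tsc22d3, the glucocorticoid-induced leucine zipper, read 10.33 and 10.35 at 1 h and 10.01 and 9.61 at 0 h (0.53, SE 0.173), and Per1, a clock gene with glucocorticoid response elements, read 8.78 and 8.85 at 1 h and 8.41 on both 0 h arrays (0.40, SE 0.0967). Dusp1, Ddit4 and Sgk1, described above, are members too, so that the list is no separate measurement of them.

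Mt2A is also a target of the zinc sensor Mtf1. In a list of 11 metal-responsive genes drawn up after the values were seen, 4 were higher and 5 lower on both 1 h arrays, against 24% and 31.7% over all genes. Its median was 0.13, but -0.05 over its bright members and -0.03 without the second 0 h array, so that the list has no settled direction. Slc30a1, the zinc exporter, read 7.50 and 7.41 at 1 h and 6.71 and 6.93 at 0 h (0.63, SE 0.162), while Mtf1 itself read 8.54 and 8.76 at 1 h and 9.02 and 9.0 at 0 h (-0.36, SE 0.146). The metal response element TGCGCNC stood in 6 of the 9 promoters found for this list (66.7%), against 12.7% of all promoters, on either strand. The promoter of Mt2A is shown for the element close to its start, in capitals (RefSeq, GRCr8, chr19:10838709-10838858, minus strand, the 150 bases before the start):
Mt2A: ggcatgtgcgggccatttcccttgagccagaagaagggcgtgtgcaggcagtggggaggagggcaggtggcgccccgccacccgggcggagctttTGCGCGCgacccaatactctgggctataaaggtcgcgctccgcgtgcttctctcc

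Targets of p53, the factor that DNA damage stabilises, were described as a list too. Of 28 measured, 7 were higher and 5 lower on both 1 h arrays (median 0.07), against 24% and 31.7% over all genes. After cyclic loess 12 were higher and 4 lower (median 0.09), against 23.4% and 23.6%. Cdkn1a, the p53-induced cell cycle inhibitor, read 9.31 and 9.52 at 1 h and 9.36 and 8.88 at 0 h, with overlap (0.30, SE 0.184, adjusted p = 0.431). Mdm2, the ubiquitin ligase that degrades p53, read 8.83 and 9.02 at 1 h and 9.16 and 9.19 at 0 h (-0.25, SE 0.104), and Ccng1 differed by -0.04 (SE 0.185). Bbc3, which encodes the death-promoting protein PUMA, stood apart from these: it read 8.10 and 8.19 at 1 h and 7.73 and 7.65 at 0 h (0.46, SE 0.112, adjusted p = 0.286, and 0.0407 in the fit of all 30 arrays). Bcl2l11, which encodes the related protein BIM, read 8.53 and 8.76 at 1 h and 8.31 and 7.94 at 0 h (0.52, SE 0.147). Gadd45a, a stress sensor with p53-dependent and independent control, differed by 0.77 (SE 0.254). Ddit4, described above, is also on the p53 list and had its largest difference (1.16). It was called in the fit of all 30 arrays too.

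Of the 15 genes named as lower, 2 take part in sensing bacteria, Tifa and Tlr4. Both are on the list of 18 such genes below, out of 14217 genes measured. Tifa, an adaptor that links bacterial sugar sensing to NF-kB, read 7.40 and 7.57 at 1 h, against 8.59 and 9.56 at 0 h (log2 difference -1.59, SE 0.256, adjusted p = 0.226, and 0.0104 in the fit of all 30 arrays). Tlr4, the receptor for bacterial lipopolysaccharide, read 9.20 and 9.11 at 1 h, against 10.01 and 10.19 at 0 h (-0.95, SE 0.156, adjusted p = 0.226, and 0.0209 with all 30 arrays). Both 1 h arrays lay below both 0 h arrays in each gene, which the rule for naming them required. Lbp, which hands lipopolysaccharide to the receptor, read 7.36 and 8.26 at 1 h and 8.69 and 9.92 at 0 h (-1.49, SE 0.458), and Cd14, the co-receptor, read 10.16 and 10.17 at 1 h and 10.46 and 10.69 at 0 h (-0.41, SE 0.164). Without the second 0 h array the differences were -1.10 for Tifa, -0.86 for Tlr4 and -0.88 for Lbp. A list of 18 genes of lipopolysaccharide sensing was drawn up after the values were seen. Of these, 9 were lower and 1 was higher on both 1 h arrays, against 31.7% and 24% over all genes. The median was -0.19, and -0.15 without the second 0 h array. Tifa and Tlr4 are among the 9 and were known when the list was drawn up, so the count is not separate from their choice. After cyclic loess 10 were lower and 4 higher (median -0.12), against 23.6% and 23.4%. The 1 gene that was higher in the deposited values was Irak4, a kinase below the receptor (0.40).

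The other genes named as lower differed by -0.54 to -0.77 and were of mixed function. They included Cpne8, a calcium-dependent membrane-binding protein (-0.77), Rapgef2, an activator of Rap GTPases (-0.68), Sema4a, a semaphorin (-0.65), Crb3, which marks the apical side of epithelial cells (-0.63), Elf1, an ETS factor (-0.60), Plekha6, a pleckstrin homology protein (-0.58), Epc2, a part of a histone acetyltransferase complex (-0.55), Tcf4, a helix-loop-helix factor (-0.54), and Aurka, a kinase of the mitotic spindle (-0.54). Trmt1l, Fam76b and the unnamed loci LOC102547287 and LOC100909928 made up the rest of the 15. Of these 15 genes, 11 were called in the fit of all 30 arrays, where 0.161% of all probe sets were called lower. These genes too were chosen by colon values that the fit uses again, so the count is no separate test.

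Genes that interferons induce lay lower at 1 h, a group noticed in the data and listed after its values were seen. Of 49 measured, 28 were lower and 3 higher on both 1 h arrays (median -0.30), against 31.7% and 24% over all genes. After cyclic loess 23 were lower and 3 higher (median -0.26), against 23.6% and 23.4%. Gbp2, a guanylate-binding GTPase of cell-autonomous defence, had the largest difference: it read 7.38 and 7.31 at 1 h, against 8.39 and 10.28 at 0 h (-1.99, SE 0.438, adjusted p = 0.286). Gbp7, of the same family, read 7.09 and 6.61 at 1 h and 7.34 and 8.79 at 0 h, and Ubd, a ubiquitin-like modifier, read 8.16 and 8.08 at 1 h and 8.49 and 9.83 at 0 h. In these 3 genes the 2 untreated pools lay further apart than the 1 h pools did from the nearer of them. The second 0 h array was the highest of the 4 for 36 of the 49 genes, and it is the array with small intestine markers, whose part was not tested. Without it the median was -0.12, Gbp2 differed by -1.05, Gbp7 by -0.50 and Ubd by -0.38. Ifi44l, an interferon-induced antiviral gene, was less affected: it read 6.89 and 7.06 at 1 h, against 7.77 and 7.93 at 0 h (-0.88, SE 0.173), and without the second 0 h array it differed by -0.80. Irf1, an activator of this group, read 9.20 and 9.82 at 1 h and 10.08 and 10.30 at 0 h (-0.68, SE 0.239). The list was not uniform. Of the 49 genes, 10 had a positive difference, the largest that of Oasl (0.56), with no overlap of its arrays.

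The interferon-stimulated response element, searched as a pair of GAAA letters with any 2 bases between them on either strand, stood in 22 of the 41 promoters found for this list (53.7%), against 3.29% of all promoters. The gamma-activated site TTCNNNGAA stood in 41.5% and 7.52%. In the 14 promoters found for the genes named as lower, the response element stood in 0 and the gamma-activated site in 1. The promoter of Gbp2 is shown for the element in capitals, which is read there on the opposite strand (RefSeq, GRCr8, chr2:234005577-234005726, plus strand, the 150 bases before the start):
Gbp2: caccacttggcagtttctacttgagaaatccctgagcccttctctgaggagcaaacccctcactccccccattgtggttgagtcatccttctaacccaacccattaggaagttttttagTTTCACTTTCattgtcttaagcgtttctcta

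Genes of mitosis lay lower as a body, by small amounts. All 31 measured had a negative log2 difference, 25 were lower on both 1 h arrays than on either 0 h array and 0 were higher, and the median was -0.38, against 31.7% lower and 24% higher over all genes. After cyclic loess 21 were lower and 0 higher (median -0.29), against 23.6% and 23.4%. None passed the test, and none was called in the fit of all 30 arrays. Cenpf, a kinetochore protein, read 8.57 and 8.68 at 1 h, against 9.27 and 9.29 at 0 h (-0.65, SE 0.136, adjusted p = 0.286). Ube2c, the ubiquitin-conjugating enzyme of the anaphase-promoting complex, read 8.41 and 8.01 at 1 h and 8.70 and 9.07 at 0 h (-0.68, SE 0.173). Top2a, the topoisomerase that untangles chromosomes, read 9.0 on both 1 h arrays and 9.48 and 9.60 at 0 h (-0.54, SE 0.133), and its dimmer probe set differed by -0.24. Kinases of the list ranged widely, with Aurka at -0.54 and Plk1, where the arrays overlapped, at -0.18 (SE 0.148). Without the second 0 h array the median was -0.30.

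The letters CCAAT, which bind the factor NF-Y, stood in 22 of the 27 promoters found for the mitosis list (81.5%), against 34.3% of all promoters, and the cell cycle homology region TTTGAA in 48.1% and 16%, both strands counted. The promoter of Top2a is shown for its row of CCAAT boxes, which read ATTGG on this strand, in capitals (RefSeq, GRCr8, chr10:84473094-84473343, minus strand, the 250 bases before the start):
Top2a: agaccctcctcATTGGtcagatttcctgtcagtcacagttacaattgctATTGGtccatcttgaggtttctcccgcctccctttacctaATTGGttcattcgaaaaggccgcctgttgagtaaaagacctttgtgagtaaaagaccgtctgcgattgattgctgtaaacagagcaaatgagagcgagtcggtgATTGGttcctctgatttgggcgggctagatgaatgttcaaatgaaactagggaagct

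DNA replication, repair and heat shock genes also lay lower, with shares over all genes of 31.7% lower and 24% higher. Of 30 replication genes, 17 were lower and 1 higher on both 1 h arrays (median -0.20, and -0.13 without the second 0 h array). Mcm4, a subunit of the replicative helicase, read 7.24 and 7.46 at 1 h and 7.91 and 8.06 at 0 h (-0.63, SE 0.202). Of 28 genes of topoisomerase I and the repair of its lesions, 17 were lower and 1 higher (median -0.20). Top1, the drug's target, read 9.46 and 9.69 at 1 h and 10.08 and 9.82 at 0 h (-0.37, SE 0.139, adjusted p = 0.300), and Chek1, the checkpoint kinase of stalled forks, read 7.60 and 7.51 at 1 h and 7.96 and 8.0 at 0 h (-0.43, SE 0.147). Of 17 heat shock genes, 12 were lower and 1 higher (median -0.23, and -0.17 without the second 0 h array). Hsph1, a large chaperone, read 8.94 and 9.18 at 1 h and 9.46 and 9.41 at 0 h (-0.37, SE 0.133).

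The deposited values also shifted with signal. Over 10 equal bins of probe sets ranked by signal, the median log2 difference was 0.12 in bin 3 and -0.15 in bin 9, where 50.5% of probe sets were lower and 6.25% higher on both 1 h arrays. Cyclic loess, which evens out such a trend, brought the medians of the bins to between -0.02 and 0.01. After it the median was -0.17 for replication, -0.16 for topoisomerase and repair and -0.16 for heat shock genes. In that order, 14, 17 and 9 of their members were lower on both 1 h arrays and 1, 1 and 3 were higher. The shares over all genes were then 23.4% higher and 23.6% lower.

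**Figure D2:**
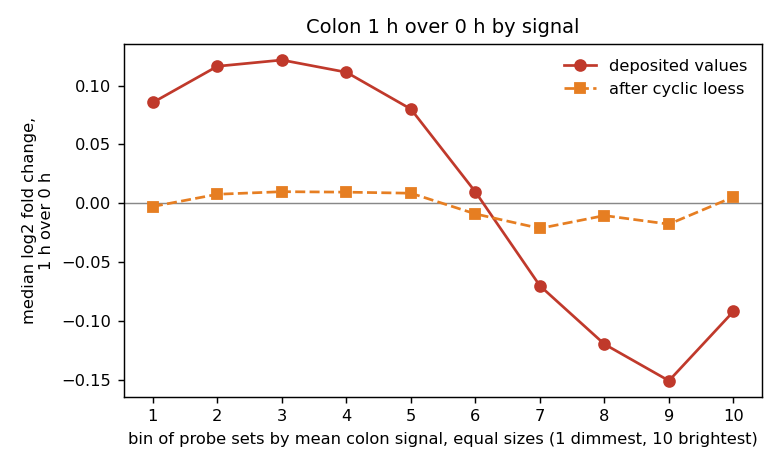
Median log2 difference of 1 h over 0 h in each of 10 equal bins of probe sets by mean colon signal, in the deposited values (red) and after cyclic loess (orange). The deposited values lie at 0.12 in bin 3 and -0.15 in bin 9; after cyclic loess every bin lies within 0.03 of 0.

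**Figure D3:**
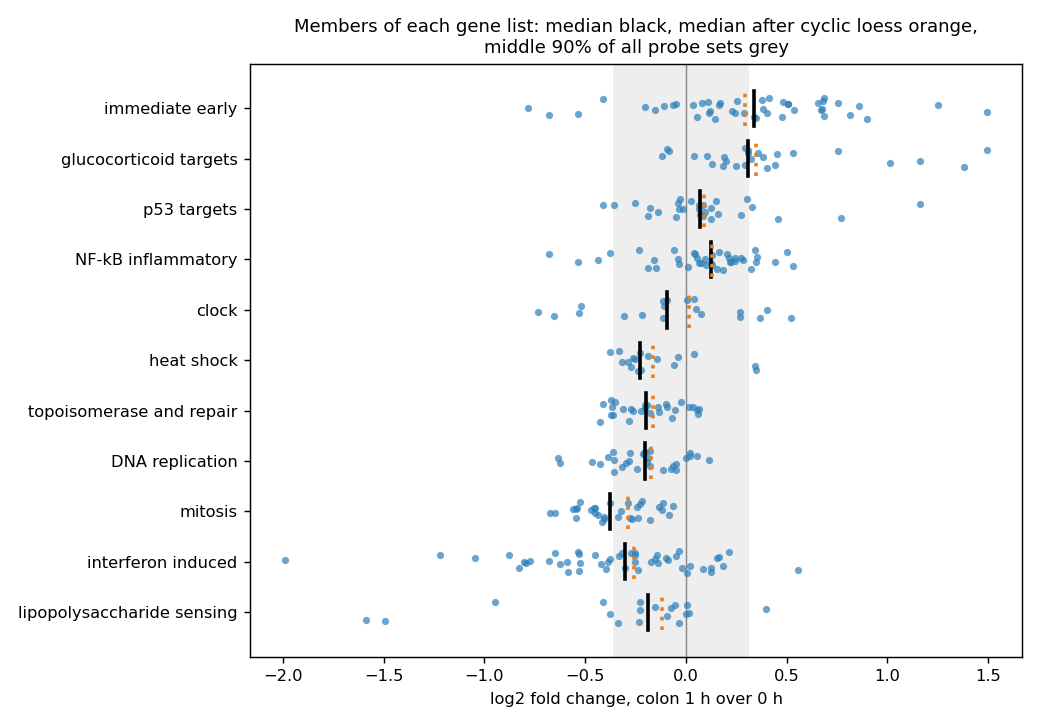
Log2 difference of 1 h over 0 h for each member of 11 gene lists (points, brightest probe set of a gene), with the list median in black, the median after cyclic loess in orange and the middle 90% of all probe sets in grey. The immediate early list has its median at 0.34 with Dusp1 at 1.50, the mitosis points are all below 0 with a median of -0.38, and the interferon list reaches -1.99.

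Several of the remaining lists are given beside the shares over all genes. These were 24% higher and 31.7% lower in the deposited values, and 23.4% and 23.6% after cyclic loess. Of response lists not described further, 10 of 31 cholinergic and prostaglandin genes were higher and 7 lower in the deposited values. The counts were 3 and 3 of 21 FoxO genes, 7 and 2 of 23 apoptosis regulators and 13 and 6 of 36 short-lived transcripts. An added list of 12 Id and Dusp genes had 6 higher and 1 lower. Of 40 inflammatory targets of NF-kB, 16 were higher and 7 lower on both 1 h arrays (median 0.13), and 17 and 5 after cyclic loess (median 0.13). Without the second 0 h array the NF-kB median was 0.22. Tnfaip3, the inhibitor A20, read 8.78 and 8.75 at 1 h and 8.19 and 8.28 at 0 h (0.53, SE 0.113), and Nfkbia, the inhibitor of NF-kB that its activity induces, read 10.37 and 10.11 at 1 h and 9.76 and 9.84 at 0 h (0.44, SE 0.158). Of 19 clock genes, 4 were higher and 7 lower (median -0.09), and 5 and 7 after cyclic loess (median 0.01). Dbp, an output gene of the clock, read 6.90 and 7.10 at 1 h and 7.59 and 7.72 at 0 h (-0.65, SE 0.129), and Nfil3, which represses the same sites, read 8.46 and 8.22 at 1 h and 7.93 and 7.71 at 0 h (0.52, SE 0.164). The labels do not give the hour of day at which the rats were killed. Of 17 genes of irinotecan handling, such as carboxylesterases, Cyp3a oxidases, Gusb and transporters, 5 were higher and 2 lower (median 0.05), and 6 and 1 after cyclic loess (median 0.04). The largest difference was that of Slco1a4, an organic anion importer (0.41). Of 35 ion and water transport genes, 9 were higher and 13 lower (median -0.04), but 9 and 6 after cyclic loess (median 0.03), so that the direction of the list turned. Its median was 0.007 without the second 0 h array. Cftr, the chloride channel of crypt cells, read 9.73 and 9.84 at 1 h and 10.00 and 10.04 at 0 h (-0.24, SE 0.154). Of 28 genes of endoplasmic reticulum stress and Atf4, 7 were higher and 11 lower (median -0.01), but 11 and 5 after cyclic loess (median 0.06), so that the balance turned here too. Of 26 genes of fatty acid use in fasting, 10 were higher and 3 lower (median 0.06), and 13 and 2 after cyclic loess (median 0.13). Of the endoplasmic reticulum list, Chac1, an Atf4 target that degrades glutathione, differed by 0.70 (SE 0.172).

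Over the colon time course the lists differed in what followed. The mitosis list had a median log2 signal of 8.34 and 8.57 at 0 h, 8.21 and 8.01 at 1 h, 7.23 and 7.33 at 6 h, 7.30 and 7.49 at 24 h, and 8.65 and 8.54 at 72 h, so that the 1 h arrays lay between the untreated and the 6 h arrays. The immediate early list read 8.44 and 8.63 at 0 h, 8.71 and 9.14 at 1 h, 8.58 and 8.88 at 6 h, 8.38 and 8.55 at 24 h, and 8.63 and 8.89 at 72 h. Mt2A was higher still on the 6 h arrays, at 12.52 and 12.30, while Ddit4, at 9.18 and 9.53, had one 6 h array at the 0 h level. Adm, at 7.79 and 7.83, lay within the range of the 0 h arrays at 6 h. Rats differ between times, so that these are levels of separate pools.

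**Figure D4:**
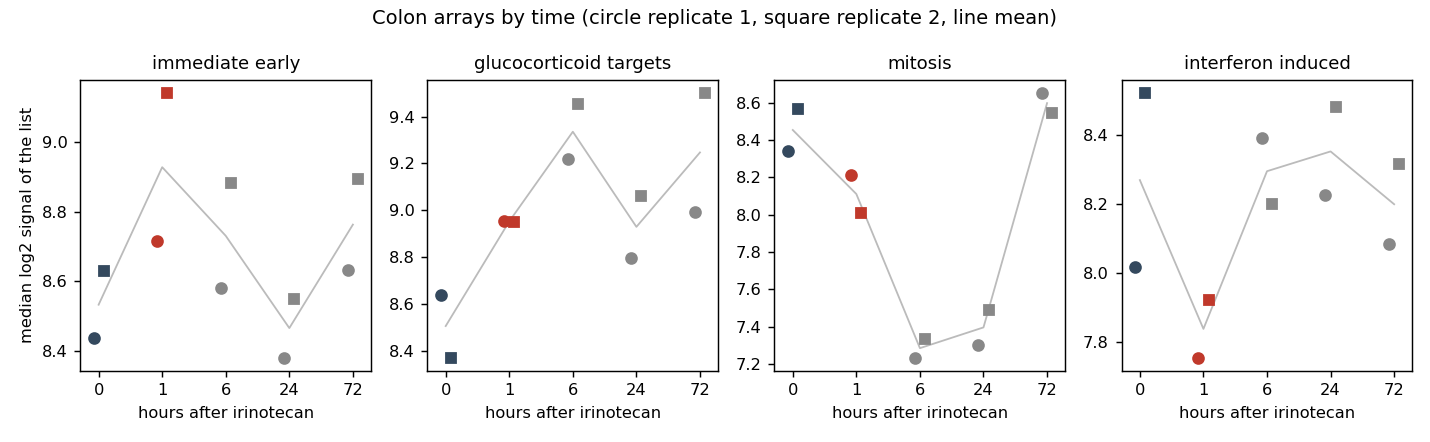
Median log2 signal of 4 gene lists on each colon array (circle replicate 1, square replicate 2) by hours after irinotecan (0 to 72), with the mean of the 2 pools as a line and a separate axis range in each panel. The mitosis medians at 1 h (8.21 and 8.01) lie between those at 0 h and those at 6 h, and the interferon medians at 1 h (7.76 and 7.92) lie below both 0 h arrays (8.02 and 8.52).

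Whether the 1 h difference of the colon itself differs from that of jejunum or stomach was tested as an interaction over all 30 arrays. No probe set passed for colon against jejunum (percent called 0, 3284 at an unadjusted p under 0.05, 10.6%), and 1 passed for colon against stomach (0.00322%, with 3046 at an unadjusted p under 0.05, 9.81%). That 1 was Ptf1a, a pancreatic and neural factor, at a dim signal of 6.40 and 6.43 at 1 h and 6.22 and 6.39 at 0 h in colon, and 7.93 and 7.92 at 1 h and 8.91 and 8.93 at 0 h in stomach. The difference between the tissues was 1.11 (SE 0.155, adjusted p = 0.0268), of which the colon's own part was 0.11. It was lost without any 1 of the 4 stomach arrays and without the second 0 h colon array.

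Several of the higher genes lay higher in all 3 tissues. Gem differed by 1.25 in colon, 1.16 in jejunum and 1.46 in stomach, and Adamts1 by 1.29, 1.22 and 1.50, and the difference between tissues had an adjusted p of at least 0.88 for each gene. Ddit4 differed by 1.16 in colon, 1.59 in jejunum and 2.11 in stomach. Of the 15 genes named as higher in colon, 14 had a positive difference in jejunum and 14 in stomach. The medians were 0.84 in colon, 0.49 in jejunum and 0.77 in stomach, where the colon's median comes from values that chose the genes. The tissues of a time share rats, so the 3 tissues are not independent. The share of all genes with such a direction was not counted, here or for the lower genes below. Id2 and Mt2A did not follow: Id2 differed by 0.82 in colon, 0.04 in jejunum and -0.03 in stomach, and Mt2A by 1.38, -0.01 and 0.36. The tests of those differences did not pass (adjusted p = 0.380 for Id2 and 0.362 for Mt2A, colon against jejunum).

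The lower genes mostly lay nearer to 0 in the other tissues. Of the 15 named, 8 had a negative difference in jejunum and 14 in stomach, with medians of -0.63 in colon, -0.03 in jejunum and -0.17 in stomach, where the colon's median comes from values that chose the genes. Tifa differed by -1.59 in colon, 0.11 in jejunum and -0.17 in stomach, and the colon-jejunum difference was -1.70 (SE 0.316, adjusted p = 0.275). Sema4a (-0.78) and Epc2 (-0.59) were also among the 5 genes with the smallest p against jejunum, at the same adjusted p, with Marchf7, a ubiquitin ligase (0.67), and Gzmb, the cytotoxic granule protease granzyme B. Gzmb read 6.63 and 6.89 at 1 h and 7.18 and 7.90 at 0 h in colon, and 10.14 and 9.65 at 1 h and 8.61 and 9.23 at 0 h in jejunum (difference -1.75, SE 0.312). Against stomach the smallest p after Ptf1a was that of Stat3, a factor activated by cytokines, which differed by -0.56 in colon and 0.48 in stomach (difference -1.03, SE 0.167, adjusted p = 0.0786). Another probe set of Stat3 gave a colon-stomach difference of 0.09. Sp2, Scaf1 and Nudt3 followed.

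**Figure D5:**
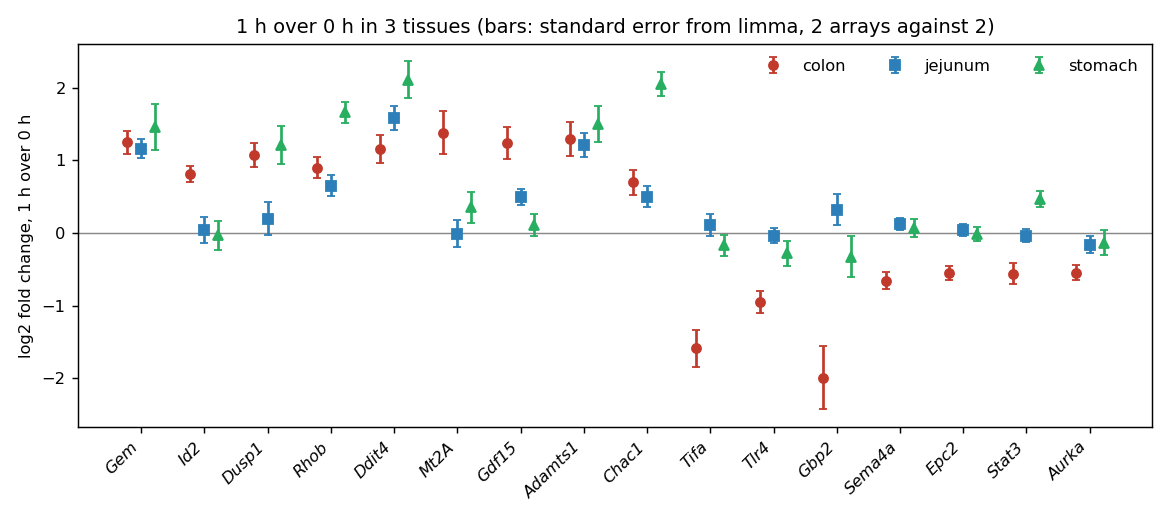
Log2 difference of 1 h over 0 h for 16 genes in colon (circles), jejunum (squares) and stomach (triangles), with bars of 1 standard error from limma's fit of each tissue's 10 arrays. Gem and Adamts1 lie above 1 in all 3 tissues, Mt2A and Id2 lie higher in colon than elsewhere, and Tifa and Gbp2 lie below -1 in colon and within 0.5 of 0 in the other tissues.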

How the data were processed

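RNA of whole colon was measured on Affymetrix rat GeneChip arrays. The values are the authors' deposited log2 signals, made with RMA per the submitters' processing notes; no source used here gives its version or says which arrays were normalized jointly. Of 31099 probe sets, 57 controls were dropped. Of the 31042 tested, 20826 have 1 gene symbol in the platform annotation (14217 genes), 436 several and 9780 none. The 10 colon arrays were fitted by time with limma 3.58.1 in R 4.3.3 (lmFit, eBayes, two-sided), with Benjamini-Hochberg adjustment over all probe sets and a threshold of 0.05. Tissue differences came from a fit of all 30 arrays, which does not model that tissues of a time share rats. The script was tested on simulated data. Nothing in the labels says more of the 2 pools of a group than that each holds 3 rats, and their number limits the precision.

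Named genes were, per direction, the 15 with the smallest p whose 1 h and 0 h arrays do not overlap; the 5 smallest p of each tissue difference; up to 8 of a list by smallest p; and 12 set genes such as Fos and Cdkn1a. Other genes were chosen after their values were seen. A list uses a gene's brightest probe set. Members and lists were chosen with earlier results of these data known. The interferon, lipopolysaccharide, metal, and Id and Dusp lists came after the values. So did the promoter motifs and promoters shown, cyclic loess and the fit of 0, 1 and 6 h. Promoters are the first listed start of a gene in RefSeq (GRCr8); 10 motifs were searched in 7 gene sets and all promoters. Replicate numbers do not pair rats across times. Of the 161 genes that the rule or the lists name, 56 had several probe sets, of which 46 had them all in 1 direction.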

Additional observations from a re-analysis of the deposited data

Results flagged for a closer look

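The 1 h difference of Ptf1a differed between tissues by an interaction test: it was higher in colon than in stomach by 1.11 on the log2 scale (adjusted p = 0.0268 in limma's fit of 30 arrays). Ptf1a differed by 0.11 in colon and by -0.99 in stomach, and it lies in the dim range in colon. The test did not pass under quantile normalization, with only the 0 and 1 h arrays of both tissues, or when any 1 of 5 of the 8 arrays was left out.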

How the results depend on the processing

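Calls of colon 1 h against 0 h, 0 in the fit of 10 colon arrays, were 3 under quantile normalization (Gem, Id2 and a probe set without a symbol), 104 in a fit of 30 arrays, 4 with only the 4 arrays compared (Dusp1, Adamts1, Gem and Adm), 3 with array weights, 2 under cyclic loess and 13 with colon at 0, 1 and 6 h only, and ran from 0 to 2 when an array was left out. They were 0 without dim probe sets, with array medians subtracted, and with limma's trend and robust options. The replicate block gave 0 calls; replicate differences of 1 h and 0 h correlated at -0.249, and the crossed block gave 0 too. Leaving out an array gave 0 to 3 calls for colon against jejunum and 0 to 4 for colon against stomach, which had 0 under quantile normalization and with only the 0 and 1 h arrays. Over 7 settings, list medians moved by more than the spread of the arrays in 5 for lipopolysaccharide sensing, in 5 for metal response (-0.051 to 0.25, both signs) and in 4 for ion and water transport (-0.091 to 0.034, both signs). With a gene's probe sets averaged they were -0.016 for clock, -0.13 for topoisomerase and repair and -0.28 for mitosis genes. With bright members alone they were 0.0055 for clock and 0.059 for NF-kB genes. Under cyclic loess they were 0.014 for clock and -0.16 for heat shock genes. With an array left out they ran from 0.010 to 0.079 for p53, 0.29 to 0.40 for glucocorticoid, 0.064 to 0.22 for NF-kB and -0.26 to -0.15 for heat shock genes. Of 36 genes, 3 with differences near 0 changed sign: Ccng1 was 0.11 under quantile normalization and 0.089 under cyclic loess, and ran from -0.12 to 0.043 with an array left out; Ptgs2 ran from -0.16 (without the second 1 h array) to 0.31; Myc was 0.082 under quantile normalization and 0.080 under cyclic loess, and ran from -0.30 to 0.20 (without the second 0 h array). The cause was not tested.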

Other observations

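Among 9699 bright genes, of which 9666 (99.7%) have a span in the RefSeq annotation, genes that span more of the genome lay lower at 1 h. The median log2 difference was -0.04 for 1167 genes of up to 5 kb, -0.10 for 2681 genes of 20 to 50 kb, -0.16 for 1396 genes of 50 to 100 kb and -0.19 for 330 genes of 200 to 500 kb. The share of genes lower on both 1 h arrays was 29.4% in the shortest class and 59.1% in the class of 200 to 500 kb. The 60 genes over 500 kb had a median of -0.19, with 50% lower and 13.3% higher. After cyclic loess the median was 0.04 in the shortest class and -0.11 in both the class of 200 to 500 kb and that over 500 kb. In the pairing of the second 1 h array with the second 0 h array the medians were -0.09 in the shortest class and -0.11 in the class of 200 to 500 kb, and in the pairing of both first arrays they were 0.01 and -0.25. This summary was chosen after the values were seen and carries no test.

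Lists of fat and mesothelial cells and of squamous epithelium also stood apart. Of 12 adipocyte and mesothelial genes, 10 were higher on both 1 h arrays and 0 lower, with a median of 0.26, against 24% higher and 31.7% lower over all genes. After cyclic loess 7 were higher and 0 lower (median 0.22), against 23.4% and 23.6%. Of 11 squamous genes 9 were higher and 1 lower, with a median of 0.24, and after cyclic loess 9 were higher and 1 lower (median 0.15). Only 1 of the 11 squamous genes lay above the median signal of all probe sets, against 6 of the 12 fat and mesothelial genes.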
